A study of Mus musculus with 16 samples.

Results

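Purinergic receptors and Gpr34 were followed in macrophages of mouse muscle as a set of 10 genes, taken by symbol from the 24421 gene symbols of the count table: the ion channels P2rx4 and P2rx7, the nucleotide receptors P2ry2, P2ry6, P2ry12, P2ry13 and P2ry14, the related receptor Gpr34, the ectonucleotidase Entpd1 and the adenosine receptor Adora2b. The genes were picked for what they encode, with their levels in these libraries already known, so their differences between injured and normal muscle are given below as a description, without p-values. Counts of these genes past the cutoff used for all genes are printed for scale, and nothing is read from them. The RNA came from F4/80+ cells sorted from muscle in 4 groups of 4 libraries each: Glud1-deficient (KO) and WT macrophages from CTX-injected muscle, taken at the peak of damage, and KO and WT macrophages from normal muscle. The labels name the injected agent only as CTX, and they do not say how Glud1 was deleted or in which cells, the age or sex of the mice, or whether each library came from its own mouse. The spread behind each p-value is thus that of the libraries as deposited, and it may be technical.

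Cells that are damaged or stimulated release ATP and other nucleotides, and macrophages read them with surface receptors. P2X receptors are ATP-gated channels, whereas P2Y receptors couple to G proteins and differ in ligand: P2ry2 responds to ATP and UTP, P2ry6 to UDP, P2ry12 and P2ry13 to ADP, and P2ry14 to UDP-glucose. Entpd1 (CD39) strips phosphates from extracellular ATP and ADP, and the adenosine that results from further breakdown acts on receptors such as Adora2b. Gpr34 is related to the P2Y receptors in sequence and is known as a receptor for lysophosphatidylserine. P2ry12, P2ry13 and Gpr34 are best known in microglia, the macrophages of the brain, and P2rx7 for its part in inflammasome activation.

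Several of the genes are neighbours. On the mm10 build, with GENCODE M21 gene models, P2rx7 (chr5:122643911-122691432, + strand) lay 16.1 kb from P2rx4 (chr5:122707544-122729738, + strand). P2ry6 (chr7:100937630-100974649, − strand) lay 21.9 kb from P2ry2 (chr7:100996568-101012866, − strand). P2ry14 (chr3:59113855-59153618), P2ry13 (chr3:59207892-59210882) and P2ry12 (chr3:59216272-59262871) stood in a row on the − strand, inside the span of Med12l on the opposite strand. The gap was 5.39 kb between P2ry13 and P2ry12, and 54.3 kb between P2ry14 and P2ry13. Gpr34 (chrX:13632089-13640858, + strand) lay inside Cask on the opposite strand without sharing exon bases, while Entpd1 (chr19:40612366-40741602, + strand) and Adora2b (chr11:62248984-62266453, + strand) had no other member on their chromosome. The library kit keeps no strand, so reads in the 9 exon bases that P2ry12 shares with Med12l could not be told apart. Med12l itself averaged 0.429 CPM (reads scaled by library total and TMM factor, in CPM units) in KO CTX, 0.297 CPM in WT CTX, 3.50 CPM in KO normal and 3.48 CPM in WT normal libraries.

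Promoter sequences are shown for 2 pairs of members whose levels moved together, namely P2ry12 and P2ry13, which were low in injured muscle, and P2ry2 and Adora2b, which were high there. RefSeq windows of 250 bases before to 50 bases after a gene's start (GRCm38.p6) were found for 8 of the 10 genes. P2ry2 had 2 such windows, of which the one with the start farther upstream is printed. They were searched on both strands for GAGGAA (the core of PU.1 sites), TGANTCA (AP-1), ACGTG (the core of hypoxia response elements) and the interferon-stimulated response core (GAAA, any 2 bases, GAAA). Capitals mark matches. Each sequence reads 5′ to 3′ along its gene.
P2ry12, chr3:59262936-59263235, − strand: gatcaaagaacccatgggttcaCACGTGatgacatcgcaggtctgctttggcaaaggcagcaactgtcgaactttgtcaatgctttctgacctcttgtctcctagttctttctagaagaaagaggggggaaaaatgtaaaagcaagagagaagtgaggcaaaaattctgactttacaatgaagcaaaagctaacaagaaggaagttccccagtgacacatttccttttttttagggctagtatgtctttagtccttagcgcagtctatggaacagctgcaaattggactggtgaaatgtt
P2ry13, chr3:59210833-59211132, − strand: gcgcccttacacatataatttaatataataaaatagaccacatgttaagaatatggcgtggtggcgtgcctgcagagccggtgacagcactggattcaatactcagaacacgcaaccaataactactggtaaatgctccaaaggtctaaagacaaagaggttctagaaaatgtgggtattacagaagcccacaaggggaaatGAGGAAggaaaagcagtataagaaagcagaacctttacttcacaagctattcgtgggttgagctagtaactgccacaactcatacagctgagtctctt
P2ry2, chr7:101012004-101012303, − strand: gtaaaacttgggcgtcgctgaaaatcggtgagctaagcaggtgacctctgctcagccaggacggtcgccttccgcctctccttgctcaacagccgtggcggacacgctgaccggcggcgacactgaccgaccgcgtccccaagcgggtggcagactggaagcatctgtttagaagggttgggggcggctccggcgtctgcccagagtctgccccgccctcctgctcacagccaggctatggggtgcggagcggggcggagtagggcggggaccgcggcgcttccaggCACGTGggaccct
Adora2b, chr11:62248734-62249033, + strand: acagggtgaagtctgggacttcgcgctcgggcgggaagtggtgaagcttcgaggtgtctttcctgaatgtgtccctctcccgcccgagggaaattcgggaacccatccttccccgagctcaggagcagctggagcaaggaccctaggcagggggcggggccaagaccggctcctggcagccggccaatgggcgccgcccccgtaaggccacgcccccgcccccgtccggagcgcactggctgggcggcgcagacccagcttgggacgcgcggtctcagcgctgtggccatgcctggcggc
The P2ry12 and P2ry2 windows each held CACGTG, a palindrome that matches ACGTG on both strands at the same bases. The P2ry13 window held GAGGAA, and the Adora2b window held none of the 4 motifs. GAGGAA also stood in every P2ry14 and P2rx7 window, some P2ry14 windows overlapping and sharing a match, and at 2 places in an Entpd1 window. TGANTCA stood in some of the P2ry14 windows and in a P2rx7 window. The interferon-stimulated response core stood in no window of the members. Among 32851 promoter windows, 28.3% held GAGGAA, 19.6% ACGTG, 7.81% TGANTCA and 3.44% the interferon-stimulated response core. These matches describe letters, not binding.

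Libraries held 21222870 to 22230960 counts in KO CTX, 19842999 to 23097420 in WT CTX, 17051892 to 22521092 in KO normal and 19352958 to 21903563 in WT normal. All 10 genes were among the 13649 tested, and the lowest count of any of them in any library was 26 (Gpr34, in WT CTX). Glud1 had 327 to 352 CPM in KO CTX, 348 to 391 in WT CTX, 210 to 272 in KO normal and 219 to 293 in WT normal libraries. Its log2 difference of KO and WT was −0.14 in CTX-injected and −0.09 in normal muscle, and the ranges overlapped in both. Glud1 is the gene named as deficient, but the labels do not tell which exons were removed. The count therefore does not settle the genotype labels, and KO and WT stand here for libraries labelled so. F4/80 itself, encoded by Adgre1, averaged 893 CPM in KO CTX, 845 in WT CTX, 539 in KO normal and 603 in WT normal libraries. The 7 pan-macrophage markers, Adgre1 among them, were mixed. At an edgeR adjusted p under 0.05, 4 were higher and 2 lower in injured muscle in KO, and 5 and 2 in WT. Csf1r averaged 1653 CPM in KO CTX and 1741 in WT CTX, against 2862 in KO normal and 3151 in WT normal libraries. Mertk averaged 42.6 and 33.6 against 69.6 and 79.2 CPM in that order. TMM factors were 0.759 to 0.866 in CTX and 1.13 to 1.34 in normal libraries, so the choice of scaling matters for every injury difference. With library totals alone, the median log2 difference of all genes moved by −0.61 in KO and −0.62 in WT. Among genes that passed the test (adjusted p under 0.05, edgeR's quasi-likelihood test), the share that was higher in injured muscle was then 18.6% in place of 45.3% in KO, and 18.9% in place of 45.8% in WT. The normal libraries numbered 3 stood apart in both genotypes for several members, and 3 normal libraries (KO 5, WT 5 and WT 6) held Xist, the X-inactivation RNA of female cells, above 10 CPM. No CTX library held more than 0.0471 CPM of Xist. Libraries with Xist were thus not balanced between injured and normal muscle, nor between KO and WT in normal muscle.

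In injured muscle, the 10 genes split in direction. At the cutoff used for all genes, 3 were counted higher and 5 lower in KO macrophages, beside 33.3% and 40.2% of all tested genes, and 4 higher and 5 lower in WT, beside 33.3% and 39.4%. The median log2 difference of the 10 was −0.60 in KO and −0.72 in WT, beside −0.16 and −0.15 for all tested genes. Groups did not overlap for 8 genes in KO and 7 in WT, where 66.8% and 65.5% of all genes did not overlap.

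**Figure D1:**
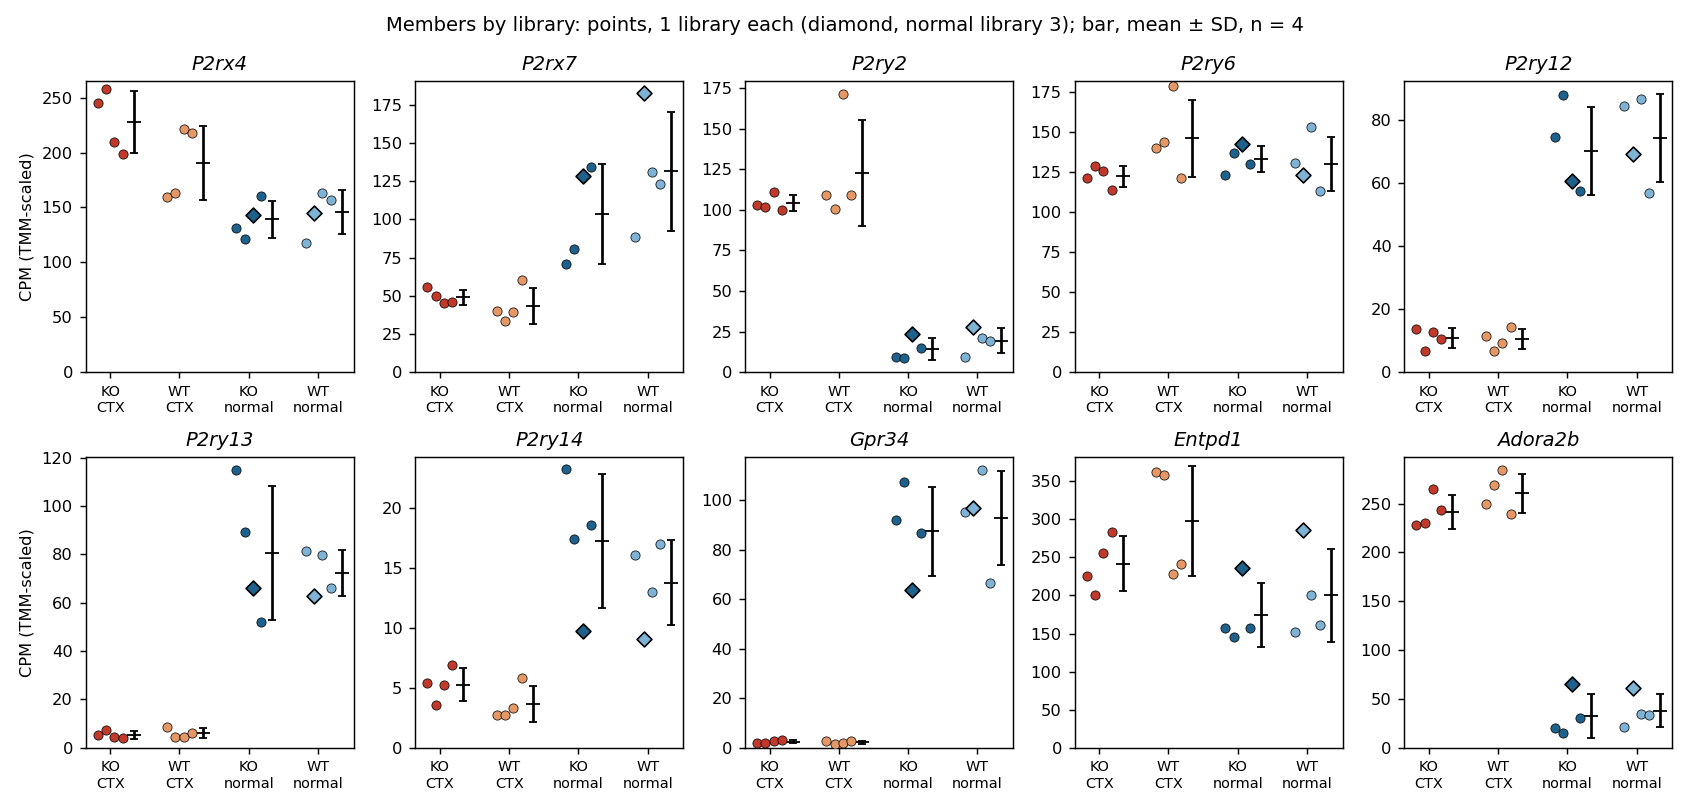
CPM (linear axis, TMM-scaled) of the 10 genes in each library of KO CTX, WT CTX, KO normal and WT normal, with points for libraries, diamonds for the normal libraries numbered 3 and bars for the mean ± SD (n = 4 each). Gpr34, P2ry13, P2ry12 and P2ry14 sit lower in all 8 CTX libraries, P2ry2 and Adora2b sit higher, and P2ry6 overlaps in all groups, between 113 and 178 CPM.

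Gpr34 was further from its normal level than any other of the 10. It had 1.96, 1.81, 2.85 and 3.12 CPM in the KO CTX libraries and 2.61, 1.62, 1.73 and 2.75 CPM in the WT CTX libraries. In normal muscle it had 92.1, 107, 63.6 and 86.7 CPM in KO and 95.5, 97.0, 112 and 66.5 CPM in WT libraries. The ranges were far apart: the highest CTX library lay at 3.12 CPM and the lowest normal library at 63.6 CPM. The log2 difference of injured and normal muscle was −5.16 (SE 0.242) in KO and −5.40 (SE 0.246) in WT, which is 35.7-fold and 42.4-fold lower. Without the 3 libraries that held Xist it was −5.17 in KO and −5.47 in WT. Gpr82, an orphan receptor next to Gpr34 on the X chromosome, also fell, by 3.66 on the log2 scale in KO (edgeR adjusted p = 2.35e-06) and by 3.69 in WT (adjusted p = 6.44e-06). Its level was low, at no more than 0.226 CPM in CTX and 3.72 CPM in normal libraries, so these differences rest on few counts.

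The ADP receptors P2ry13 and P2ry12 were likewise low in injured muscle. P2ry13 had 5.41, 7.53, 4.36 and 4.10 CPM in KO CTX and 8.78, 4.52, 4.59 and 6.05 CPM in WT CTX libraries, against 115, 89.4, 66.1 and 52.0 CPM in KO normal and 81.4, 62.8, 79.6 and 66.0 CPM in WT normal libraries. The groups were well separated, with log2 differences of −3.91 (SE 0.276) in KO and −3.59 (SE 0.272) in WT. P2ry12 had 13.7, 6.51, 12.8 and 10.55 CPM in KO CTX and 11.3, 6.69, 9.17 and 14.2 CPM in WT CTX libraries, against 74.4, 87.9, 60.6 and 57.2 CPM in KO normal and 84.2, 69.3, 86.6 and 56.7 CPM in WT normal libraries. Its log2 differences were −2.69 (SE 0.248) in KO and −2.84 (SE 0.25) in WT, with no overlap. Platelets also carry P2ry12. Of 6 platelet genes, 4 were tested, and in each genotype 2 rose (Pf4 and Ppbp) and 2 fell. The integrin gene Itga2b averaged 1.79 CPM in KO CTX, 1.07 in WT CTX, 31.2 in KO normal and 22.0 in WT normal libraries, and Gp9, Gp1bb and Tubb1 stayed under 1 CPM in every library. The list, in which Pf4 was the most abundant, summed to 1307 to 1988 CPM in KO CTX, 1565 to 2403 in WT CTX, 253 to 333 in KO normal and 310 to 547 in WT normal.

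P2ry14, the UDP-glucose receptor at the end of the same row of genes, was low everywhere. It had 5.41, 3.57, 5.20 and 6.86 CPM in KO CTX and 2.72, 2.73, 3.32 and 5.83 CPM in WT CTX libraries, against 23.2, 17.4, 9.69 and 18.6 CPM in KO normal and 16.02, 9.03, 12.99 and 16.96 CPM in WT normal libraries. The lowest normal library in each genotype was number 3. Log2 differences were −1.71 (SE 0.299) in KO and −1.91 (SE 0.307) in WT, and the groups did not overlap. Gpr171, which lies beside P2ry14, fell by 1.11 on the log2 scale in KO (edgeR adjusted p = 0.00362) and by 1.22 in WT (adjusted p = 0.00198).

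Other markers moved with these 4 receptors. The marker lists were chosen with earlier results of these data known, so their calls are a description. A list of resident macrophage and microglia markers, 11 genes of which 10 were tested, had 7 that fell and none that rose in each genotype. It summed to 438 to 539 CPM in KO CTX, 391 to 595 in WT CTX, 1808 to 2119 in KO normal and 1825 to 2952 in WT normal libraries. Its member Cx3cr1, the fractalkine receptor, averaged 13.05 CPM in KO CTX, 12.8 in WT CTX, 182 in KO normal and 167 in WT normal libraries, whereas Tmem119, a microglia marker, averaged 14.6, 14.5, 12.4 and 12.2 CPM in the same order. Sall1, which defines microglia, was at 0 in every library but 1 of KO CTX, where it reached 0.0559 CPM. Monocyte markers, 6 genes, summed to 3345 to 3735 CPM in KO CTX, 3239 to 4136 in WT CTX, 782 to 1699 in KO normal and 778 to 1582 in WT normal. Most lists of other cells held more genes that fell than rose. The monocyte list was an exception, with 3 of 6 genes higher in KO, 2 of 6 in WT and none lower, and the platelet list, given above, was evenly split. All 8 tested T and NK cell genes and all 5 mast cell genes fell in both genotypes, as did 4 of 5 eosinophil genes and 5 of 6 dendritic cell genes, with 1 of the last rising. Of the B cell list 4 of 4 fell in KO and 3 of 4 in WT, of the endothelial list 6 of 7 and 5 of 7, of the fibroblast list 6 of 6 and 5 of 6, and of the muscle fibre list 6 of 6 and 5 of 6. Of 7 neutrophil genes none passed in KO and 5 fell in WT, and the 1 tested satellite cell gene fell in both. The T and NK cell list of 9 genes, 8 in the table, summed to 3.86 to 6.75 CPM in KO CTX, 0.997 to 4.59 in WT CTX, 29.3 to 75.6 in KO normal and 25.8 to 47.9 in WT normal, and the dendritic cell list of 6 genes to 28.8 to 32.4, 36.4 to 50.5, 262 to 505 and 232 to 332 CPM in the same order. In that order the mast cell list summed to 4.03 to 18.7, 4.73 to 7.91, 79.3 to 147 and 96.9 to 327 CPM, the eosinophil list to 46.7 to 111, 27.8 to 55.1, 115 to 573 and 62.6 to 874 CPM, and the B cell list to 1.62 to 9.403, 1.20 to 5.78, 16.9 to 42.3 and 11.8 to 30.6 CPM. In these 5 lists every CTX library lay under every normal library of its genotype, and so it did in the endothelial, fibroblast, muscle fibre and satellite cell lists. The endothelial list summed to 44.4 to 65.7, 47.0 to 62.2, 115 to 195 and 82.1 to 126 CPM, the fibroblast list to 54.3 to 68.8, 75.96 to 99.9, 185 to 888 and 225 to 548 CPM, and the muscle fibre list to 2.70 to 4.93, 2.58 to 5.098, 11.2 to 38.6 and 13.7 to 38.3 CPM. The neutrophil list ran from 227 to 1092, 178 to 412, 208 to 6205 and 251 to 4195 CPM, overlapping throughout, and the satellite cell list from 52.4 to 73.3, 64.2 to 82.4, 145 to 406 and 204 to 248 CPM. Nearly all of the satellite cell sum was Vcam1, with means of 63.7, 73.5, 263 and 229 CPM in that order. Pax7, Myf5, Myod1 and Cdh15 stayed under 1 CPM in every library, so the sum says little about satellite cells. The part of these cells in the receptor differences was not tested, and in bulk RNA fewer cells of a type and less RNA per cell cannot be told apart.

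The ATP-gated channels parted. P2rx7 had 55.8, 49.98, 45.1 and 45.6 CPM in KO CTX and 40.1, 33.4, 39.3 and 60.0 CPM in WT CTX libraries, against 70.8, 80.5, 129 and 135 CPM in KO normal and 88.6, 183, 131 and 123 CPM in WT normal libraries. It was lower in injured muscle without overlap, by a log2 difference of −1.08 (SE 0.238) in KO and −1.61 (SE 0.241) in WT. Its neighbour P2rx4, a channel found largely in lysosomes, had 245, 258, 210 and 199 CPM in KO CTX and 160, 163, 222 and 218 CPM in WT CTX libraries, against 131, 122, 143 and 160 CPM in KO normal and 118, 145, 164 and 157 CPM in WT normal libraries. The KO groups were apart and the WT groups overlapped. The log2 difference of P2rx4 was 0.71 (SE 0.143) in KO and 0.39 (SE 0.142) in WT, but with library totals it was 0.10 in KO and −0.23 in WT. When single libraries were left out, the WT value ran from 0.29 (WT normal library 2 left out) to 0.46 (WT CTX library 1 left out).

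A ratio inside a library does not depend on scaling. Per kilobase of merged exons, the ratio of P2rx4 to P2rx7 was 3.71 to 4.39 in KO CTX, 3.08 to 4.80 in WT CTX, 0.948 to 1.57 in KO normal and 0.671 to 1.13 in WT normal libraries. The balance of the neighbouring channels thus leaned to P2rx4 in all 8 CTX libraries.

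Among the receptors for ATP, UTP and UDP, P2ry2 was high in injured muscle and P2ry6 differed little. P2ry2 had 103, 102, 111 and 100 CPM in KO CTX and 109, 100.9, 171 and 109 CPM in WT CTX libraries, against 9.37, 8.93, 23.3 and 14.9 CPM in KO normal and 9.57, 27.9, 20.99 and 18.9 CPM in WT normal libraries. In each normal group the highest value was that of library 3. The log2 difference of P2ry2 was 2.88 (SE 0.32) in KO and 2.67 (SE 0.316) in WT, or 7.38-fold and 6.35-fold higher, and stayed positive with library totals (2.30 and 2.06). P2ry6 had 121, 129, 125 and 114 CPM in KO CTX and 140, 144, 178 and 121 CPM in WT CTX libraries, against 123, 137, 142 and 130 CPM in KO normal and 130, 123, 153 and 113 CPM in WT normal libraries. All of its groups overlapped. Its log2 difference was −0.12 (SE 0.115) in KO and 0.17 (SE 0.115) in WT, but with library totals it was −0.73 in KO and −0.45 in WT. Within a library, the ratio of P2ry2 to P2ry6 per kilobase was 0.582 to 0.652 in KO CTX, 0.516 to 0.706 in WT CTX, 0.0480 to 0.121 in KO normal and 0.0540 to 0.166 in WT normal.

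Adora2b, an adenosine receptor of low affinity, was high in injured muscle. It had 228, 230, 265 and 244 CPM in KO CTX and 249, 269, 284 and 240 CPM in WT CTX libraries, against 19.9, 14.7, 65.1 and 30.3 CPM in KO normal and 21.6, 61.4, 34.1 and 33.6 CPM in WT normal libraries. The CTX libraries lay close together, and the normal libraries numbered 3 were the highest of their groups. The log2 difference was 2.89 (SE 0.379) in KO and 2.79 (SE 0.377) in WT, or 7.43-fold and 6.92-fold higher. Without KO normal library 3 it was 3.50 in KO, and without WT normal library 3 it was 3.12 in WT. The ratio of Adora2b to Gpr34 per kilobase spanned 88.5 to 144 in KO CTX, 98.8 to 189 in WT CTX, 0.156 to 1.16 in KO normal and 0.256 to 0.717 in WT normal libraries.

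Entpd1, whose product removes the ligands of the ATP and ADP receptors, differed less and unevenly. It had 226, 201, 256 and 284 CPM in KO CTX and 362, 358, 229 and 241 CPM in WT CTX libraries, against 158, 146, 236 and 157 CPM in KO normal and 153, 286, 201 and 161 CPM in WT normal libraries. CTX and normal libraries overlapped in both genotypes. The log2 difference was 0.47 (SE 0.217) in KO and 0.57 (SE 0.217) in WT, with −0.12 and −0.03 when library totals were used. In WT it was 0.49 with the replicate number as a block and 0.43 without the libraries that held Xist, and it lay between 0.46 and 0.78 when single libraries were left out. In KO it lay between 0.39 and 0.66, with the highest value without KO normal library 3.

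**Figure D2:**
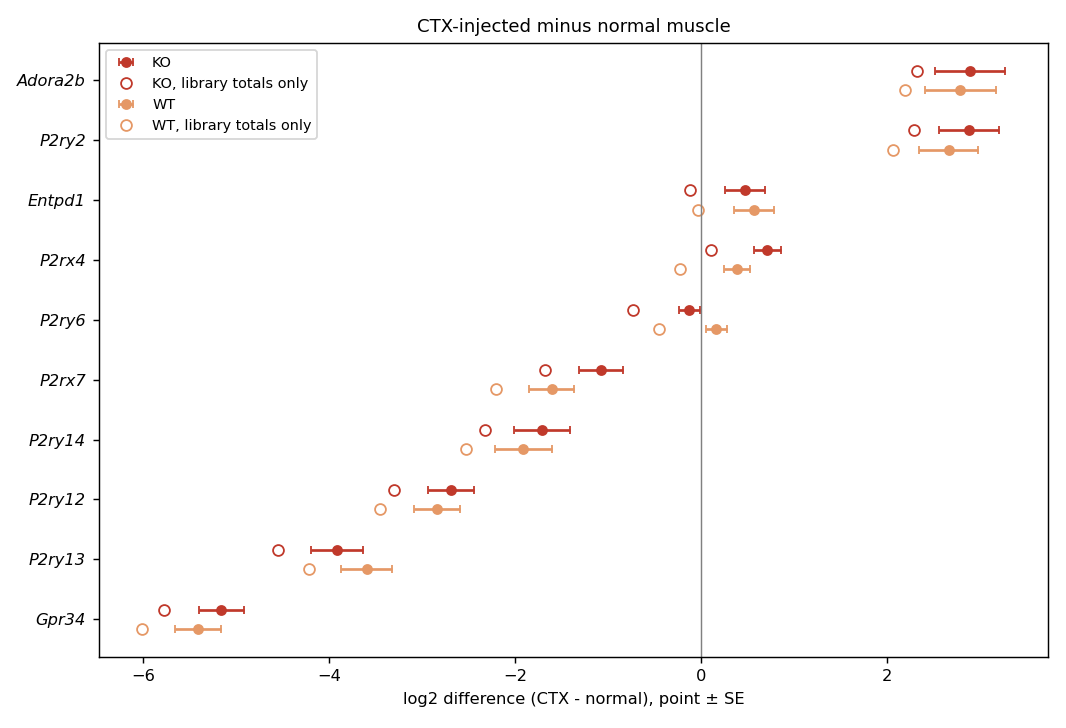
Log2 difference of CTX-injected and normal muscle for the 10 genes in KO and in WT, filled with bars of 1 SE under TMM scaling, and open without bars under library totals. The values run from −5.40 for Gpr34 in WT to 2.89 for Adora2b in KO, and library totals carry Entpd1 in KO and P2rx4, P2ry6 and Entpd1 in WT across 0.

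Set against each other per kilobase of merged exons, the 10 genes held a different order in injured and in normal muscle. In CTX libraries Adora2b led, with a mean of 131 CPM per kb in KO and 141 in WT. Entpd1 (43.3 in KO, 53.4 in WT) and P2ry6 (42.3 in KO, 50.5 in WT) came next and overlapped each other, as did P2rx4 (32.5 in KO, 27.1 in WT) and P2ry2 (26.5 in KO, 31.2 in WT). Below them stood P2rx7 at 8.23 in KO and 7.24 in WT, P2ry12 at 4.27 and 4.07, P2ry13 at 2.12 and 2.37, Gpr34 at 1.17 and 1.04, and P2ry14 at 0.476 and 0.330 CPM per kb. In normal muscle 8 genes lay within 1 band of overlapping ranges: P2ry6 averaged 46.1 CPM per kb in KO and 45.0 in WT, Gpr34 41.8 and 44.4, and the lowest mean of the band was 17.4 in KO (P2rx7) and 20.4 in WT (Adora2b). P2ry2, at 3.60 in KO and 4.92 in WT, and P2ry14, at 1.56 in KO and 1.24 in WT, were below it. Gpr34 was therefore second in mean level in KO normal libraries, and second to last in KO and WT CTX libraries.

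**Figure D3:**
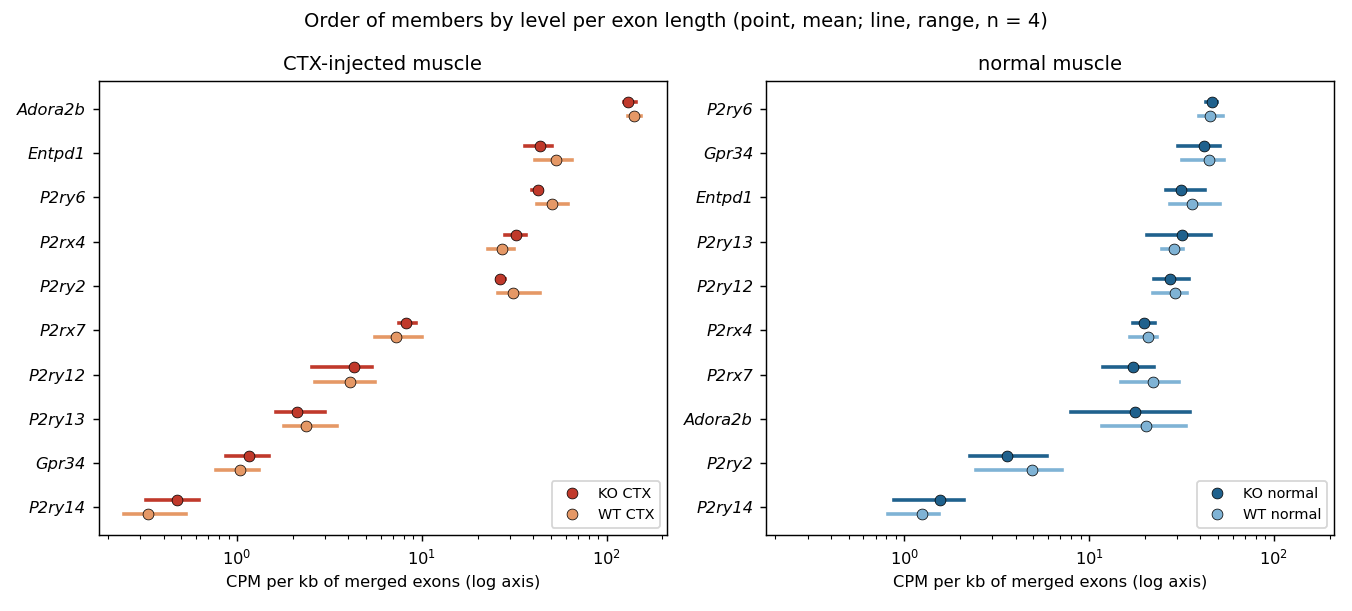
Mean level of each gene in CPM per kilobase of merged exons (log axis) in KO CTX and WT CTX (left) and KO normal and WT normal libraries (right), with lines from the lowest to the highest of 4 libraries and genes sorted by level in each panel. Adora2b is highest in both CTX groups at 131 and 141 CPM per kb, and Gpr34 is at 1.17 and 1.04 there, against 41.8 and 44.4 in the normal groups.

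Likeness of pattern was measured as the root mean square difference of centred log2 CPM over the 16 libraries. Among the 10 genes, P2ry2 and Adora2b were nearest to each other, at 0.23 log2 units, and in each library the ratio of Adora2b to P2ry2 per kilobase lay between 3.45 and 5.93. Gpr34 and Adora2b were farthest apart, at 4.18. Across 9255 genes, those nearest to P2ry2 were Mdm2 (0.187), the ligase that targets p53, and Tnfaip2 (0.206), and those nearest to Adora2b were Abtb2 (0.194) and Por (0.196), the electron donor of cytochrome P450 enzymes. P2ry13 was nearest to Cx3cr1 (0.288), P2ry12 to Fkbp9 (0.248), P2ry14 to Rhoh (0.284) and Gpr34 to Slc14a1 (0.289), a urea transporter.

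P2rx7 had chaperone genes as its nearest: Bag3 (0.206), Hsp90aa1 (0.209) and Hspe1 (0.216). Bag3 and Hsp90aa1 were highest in normal library 3 of each genotype, where Bag3 reached 201 CPM (KO) and 199 CPM (WT). In KO normal libraries 1, 2 and 5 Bag3 had 66.7, 87.8 and 166 CPM, and P2rx7 also had its higher KO values in libraries 3 and 5. The part of what set the chaperone genes in the P2rx7 values was not tested. For the genes that differed little, the nearest were Gaa (0.125) for P2rx4, Rnaset2b (0.12) for P2ry6, and Spty2d1 and Hdac5 (0.168 each) for Entpd1.

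The other genes of the pathway were taken from lists of 47 further symbols, of which 39 were tested. In KO 13 rose, 17 fell and 9 did not pass the test in injured muscle, and in WT 12 rose, 16 fell and 11 did not pass. The whole table had 73.6% of genes called in KO (33.3% higher, 40.2% lower) and 72.7% in WT (33.3% higher, 39.4% lower). With library totals 27 of the 39 fell in KO and 26 in WT. Their median log2 difference was −0.18 in KO and −0.32 in WT. These values are from edgeR's quasi-likelihood test, as are the adjusted p-values that follow. Like the members, these lists were chosen with earlier results of these data known. Their calls and adjusted p-values in injured muscle are thus a description, and so are those of Gpr82 and Gpr171 above.

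Receptors outside the 10 mostly fell, beside 40.2% of all tested genes lower in KO and 39.4% in WT. The lists are short, and nothing is read from the counts by list. All 3 tested P2X channels fell in both genotypes. P2rx1 averaged 4.77 CPM in KO CTX and 3.83 in WT CTX, against 15.6 in KO normal and 16.1 in WT normal libraries (log2 difference −1.70 in KO, adjusted p = 0.000643, and −2.07 in WT, adjusted p = 0.000144). P2rx5 and P2rx6 were at or under 6.90 CPM in every library, so their fitted differences rest on few counts: P2rx6 was −3.56 in WT and −4.97 without WT CTX library 4, and P2rx5 was −3.56 in WT and −4.19 without WT CTX library 1. The ADP receptor P2ry1 fell by 0.69 in KO (adjusted p = 0.0256) and by 0.98 in WT (adjusted p = 0.00346), and its KO call was lost without KO CTX library 2 or 3 or KO normal library 1 or 3 (−0.58 to −0.68). Of 6 tested P2Y-like receptors, 4 fell and none rose in each genotype. P2ry10, a further lysophosphatidylserine receptor known from lymphocytes, fell by 2.26 in KO (adjusted p = 3.09e-06) and by 2.71 in WT (adjusted p = 6.22e-07), while Lpar6 did not pass in either genotype (it did in WT without WT CTX library 1 or 2 or WT normal library 5, at −0.74, −0.71 and −0.65). The rest of the falling ones were Gpr171 and Gpr82 in both genotypes, Gpr174 in KO (adjusted p = 0.0379, against 0.109 in WT) and Lpar4 in WT (adjusted p = 0.0193, against 0.0947 in KO). Both averaged under 1 CPM over all libraries. The Gpr174 call was lost without KO CTX library 1, 3 or 4 or KO normal library 1 or 2 (−1.56 to −2.12), with the replicate block (−1.70) and with no filter (−1.85), and the Lpar4 call without WT CTX library 1, 2 or 4 (−2.18 to −2.20), while without WT CTX library 3 Lpar4 was at −2.96. No interaction passed for either, so the genotypes were not shown to differ.

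Adora2a, the adenosine receptor of high affinity, rose with Adora2b. It averaged 109 ± 21.8 CPM in KO CTX and 116 ± 50.5 CPM in WT CTX, against 22.5 ± 8.08 CPM in KO normal and 23.5 ± 5.91 CPM in WT normal libraries (SD, n = 4 each). The log2 difference was 2.28 in KO (SE 0.3, adjusted p = 5.15e-06) and 2.30 in WT (SE 0.3, adjusted p = 4.79e-06). Adora3 fell, by 1.33 in KO (adjusted p = 0.026) and 1.69 in WT (adjusted p = 0.00795), at means of 0.608 CPM in KO CTX and 0.507 in WT CTX, against 1.54 in KO normal and 1.63 in WT normal, and both calls were lost with the replicate block (−1.10 in KO and −1.31 in WT) and without the libraries that held Xist (−1.03 in KO and −1.46 in WT). The KO call was also lost without KO CTX library 2 or 3 or KO normal library 2 or 5 (−1.04 to −1.24).

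Among the ectonucleotidases other than Entpd1, 3 of 6 rose in both genotypes. Nt5e (CD73), which makes adenosine from AMP, averaged 56.5 ± 10.5 CPM in KO CTX and 62.1 ± 14.4 CPM in WT CTX, against 4.36 ± 2.19 CPM in KO normal and 3.12 ± 2.46 CPM in WT normal libraries (SD, n = 4 each). Its log2 difference was 3.68 in KO (SE 0.462, adjusted p = 3.1e-06) and 4.32 in WT (SE 0.48, adjusted p = 8.58e-07). Enpp1, which cleaves ATP to AMP and pyrophosphate, rose by 2.23 in KO (adjusted p = 4.44e-09) and 2.37 in WT (adjusted p = 2.57e-09). Entpd3 rose as well, at 1.58 in KO (adjusted p = 0.00842) and 2.22 in WT (adjusted p = 0.000815), with no library above 1.20 CPM, and its WT value was 2.96 without WT normal library 3. With library totals its KO value was 0.97 and no longer passed. Alkaline phosphatase Alpl and Entpd2 fell in both genotypes, Alpl at −3.004 in KO (adjusted p = 5.36e-06) and −2.56 in WT (adjusted p = 2.85e-05), and Entpd2 at −4.72 in KO (adjusted p = 9.17e-07) and −2.49 in WT (adjusted p = 0.000129). Entpd2 had at most 2.56 CPM in any library and 0.115 CPM in KO CTX libraries, so its differences rest on few counts. Its interaction did not pass (−2.23, adjusted p = 0.667). Enpp3 fell in KO (−4.19, adjusted p = 0.000307, and −5.54 without KO CTX library 1) and did not pass in WT (−1.64, adjusted p = 0.0504), where it was called without WT CTX library 3 (−2.96), with library totals (−2.25), with RLE size factors (−1.66) and by DESeq2 (−1.68). Enpp3 likewise rests on few counts, with no library above 1.49 CPM, and its interaction did not pass. Entpd7, an enzyme of internal membranes, rose by 2.33 in KO (adjusted p = 1.15e-06) and 2.105 in WT (adjusted p = 3.11e-06). Entpd6 fell in KO (−0.55, adjusted p = 0.00436) and did not pass in WT (−0.32, adjusted p = 0.0709; −0.42 and called without WT normal library 3), and Entpd5 passed in neither.

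Of 7 genes for nucleotide release and adenosine uptake, 2 rose and 3 fell in each genotype. Gja1, the gap junction protein connexin 43 that also forms ATP-releasing hemichannels, averaged 194 ± 42.9 CPM in KO CTX and 286 ± 96.6 CPM in WT CTX, against 20.1 ± 10.5 CPM in KO normal and 18.4 ± 6.74 CPM in WT normal libraries (SD, n = 4 each). It rose by 3.26 in KO (SE 0.349, adjusted p = 5.58e-07) and 3.96 in WT (SE 0.36, adjusted p = 1e-07). Slc29a1, the equilibrative nucleoside transporter of the cell surface, fell by 2.03 in both genotypes (adjusted p = 2.7e-09 in KO and 2.62e-09 in WT). Its lysosomal relative Slc29a3 rose by 0.53 in KO (adjusted p = 5.73e-06) and 0.44 in WT (adjusted p = 3.59e-05), but was at −0.08 and −0.17 with library totals. Slc17a9, which loads ATP into vesicles, and the channel subunit Lrrc8a fell in both genotypes, whereas the ATP release channel Panx1 and Slc29a2 passed in neither. With library totals Panx1 was called lower in both, at −0.42 in KO and −0.41 in WT. The adenosine kinase Adk rose by 0.27 in both genotypes (adjusted p = 0.0377 in KO and 0.038 in WT). When library totals were used it was called lower in both, at −0.35. Its calls were lost in 9 alternatives in KO and 11 in WT. Ada, adenosine deaminase, rose in KO (0.96, adjusted p = 0.0403) and did not pass in WT (−0.27, adjusted p = 0.565). Its KO call was lost in 9 of 15 alternatives: with library totals (0.35), with the replicate block (0.65), without the libraries that held Xist (0.82) or both normal libraries numbered 3 (0.86), and without KO CTX library 3 or 4 or KO normal library 1, 3 or 5 (0.62 to 1.02).

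Of 6 genes that act downstream of P2rx7, 3 rose in both genotypes, while 1 fell in KO and 2 in WT. Nlrp3, the inflammasome sensor, rose by 1.90 in KO (adjusted p = 0.00075) and 1.80 in WT (adjusted p = 0.00118). Its adaptor Pycard rose by 1.19 (adjusted p = 1.14e-05) and 1.34 (adjusted p = 3.49e-06), and the cytokine gene Il1b by 1.74 (adjusted p = 0.000155) and 2.31 (adjusted p = 1.15e-05), in KO and in WT. Nek7 fell in both genotypes, Casp1 fell in WT (−0.48, adjusted p = 0.000118) and did not pass in KO (0.02, adjusted p = 0.81, but −0.58 with library totals), and the pore protein gene Gsdmd passed in neither. With library totals Casp1 and Gsdmd (−0.61) were called lower in KO. The interaction for Casp1 was 0.50 (SE 0.121) with an adjusted p of 0.283 by edgeR's quasi-likelihood test. DESeq2 gave 0.50 with an adjusted p of 0.04, and over all alternatives the adjusted p ran from 0.04 to 0.617. For lysophosphatidylserine, the ligand of Gpr34, the phospholipase Pla1a that makes it rose by 2.21 in KO (adjusted p = 6.39e-05) and 1.69 in WT (adjusted p = 0.000568), at no more than 4.12 CPM. Abhd16a and Abhd12, which make and break it inside cells, passed in neither genotype with TMM scaling. With library totals both were called lower, at −0.59 and −0.57 in KO and at −0.63 and −0.54 in WT.

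**Figure D4:**
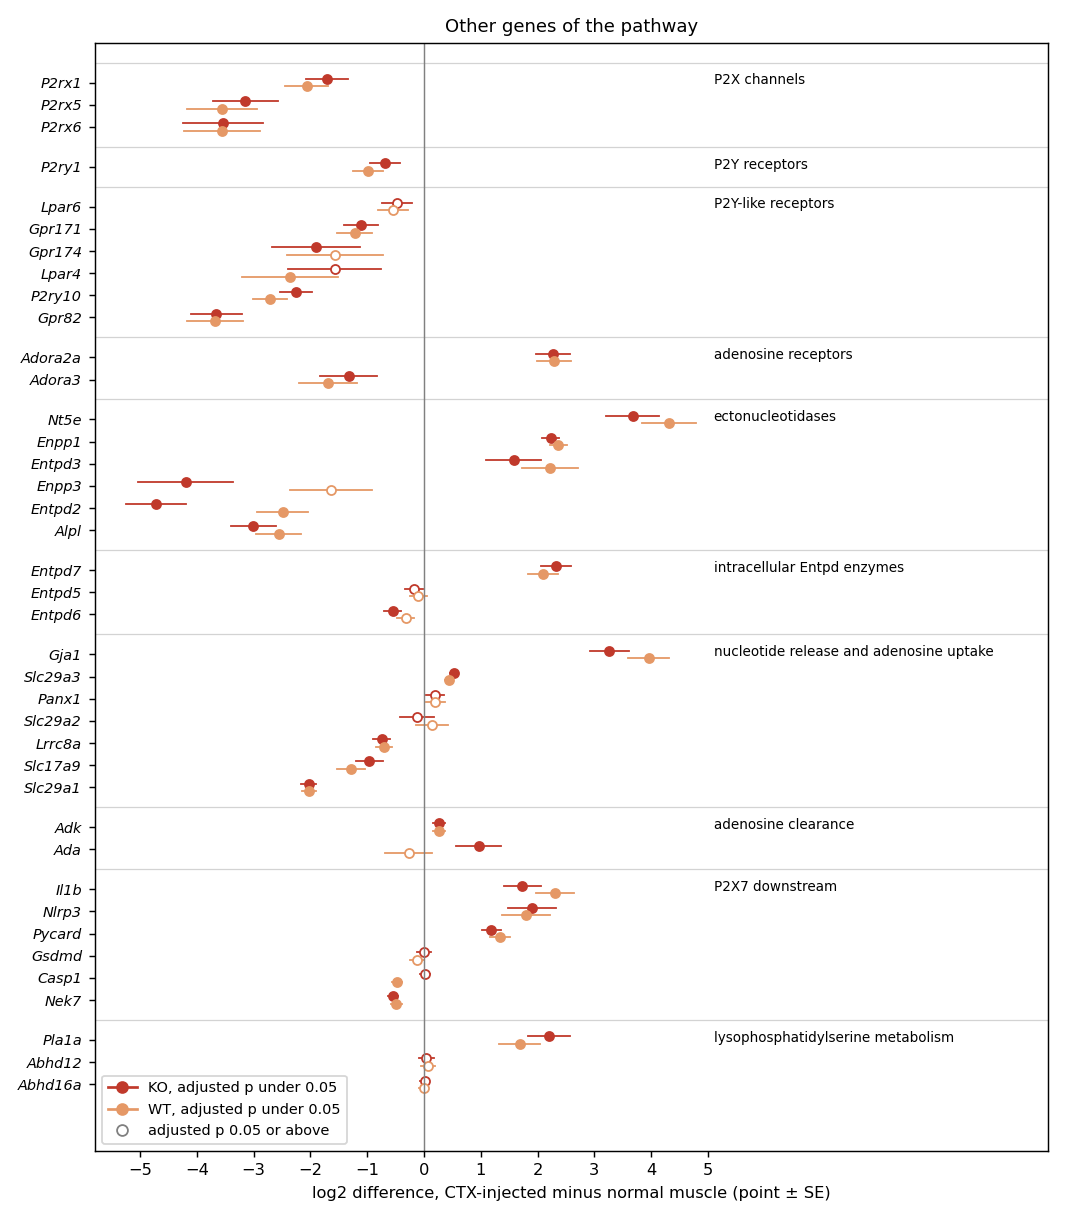
Log2 difference of CTX-injected and normal muscle, with bars of 1 SE, for the tested pathway genes outside the 10, grouped by list, in KO and in WT, with open points where the adjusted p was 0.05 or above. All P2X channels lie below 0, while Gja1 and Nt5e are the highest, between 3.26 and 4.32.

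No difference between KO and WT was detectable for the 10 genes. In CTX-injected muscle none passed the test in KO against WT, beside 0.00733% of all tested genes (1 gene, Lyz1, at a log2 difference of 1.83 and adjusted p = 0.00228), and 1 of the 10 and 910 of all genes had an unadjusted p under 0.05. That member was P2ry6, which averaged 122 ± 6.41 CPM in KO CTX and 146 ± 23.9 CPM in WT CTX libraries (SD, n = 4 each). Its log2 difference was −0.26 (SE 0.116, 95% interval −0.50 to −0.01), with an edgeR adjusted p of 0.712, and the groups overlapped. P2ry14 had the largest difference of the 10, 0.53 (SE 0.31, 95% interval −0.13 to 1.183, adjusted p = 0.887). Entpd1 followed at −0.30 (95% interval −0.76 to 0.16, adjusted p = 0.932), P2rx4 at 0.26 (−0.04 to 0.56, adjusted p = 0.852), P2ry2 at −0.24 (−0.86 to 0.39, adjusted p = 0.984) and P2rx7 at 0.18 (−0.32 to 0.69, adjusted p = 0.987). Gpr34 (0.16), P2ry13 (−0.17), Adora2b (−0.11) and P2ry12 (0.07) had adjusted p-values of 0.988 to 0.994. The median over the 10 was −0.02, the same as over all genes to 2 decimals, and KO and WT libraries overlapped for every member, where 5.7% of all genes did not overlap. The DESeq2 Wald test called 17 genes higher and 26 lower, and none of the 10.

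In normal muscle none of the 10 passed in KO against WT, and the count over all genes was also 0 (0% called), with 390 genes and none of the 10 at an unadjusted p under 0.05. DESeq2 called none of the 10 either. Every adjusted p was 0.991. The differences were widest for P2ry2, at −0.46 (95% interval −1.10 to 0.19), P2rx7, at −0.34 (−0.84 to 0.15), and P2ry14, at 0.32 (−0.28 to 0.93), and those of P2rx4, P2ry6, P2ry12 and Gpr34 lay between −0.09 and 0.04. With the replicate number as a block within normal muscle, P2ry2 was at −0.29, P2rx7 at −0.20 and P2ry14 at 0.25. Without the libraries that held Xist they were at −0.40, −0.51 and 0.45. P2ry13 was at 0.15, but at −0.13 with that block and at 0.35 without those libraries. KO and WT libraries overlapped for all 10, where 1.08% of all genes did not. The normal libraries of P2ry2 ran from 8.93 to 27.9 CPM and those of Adora2b (interval −0.97 to 0.54) from 14.7 to 65.1 CPM, and intervals of this width do not show that the genotypes were alike.

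The injury difference was not shown to depend on genotype for any of the 10. The interaction, the genotype difference in injured muscle minus that in normal muscle, had an adjusted p of 1 for each of them in edgeR, with none of the 10 and 646 of all genes at an unadjusted p under 0.05 and 0% of genes called. It was widest for P2rx7, at 0.53 (SE 0.333, 95% interval −0.18 to 1.24), then P2rx4, at 0.33 (−0.10 to 0.75), P2ry13, at −0.32 (−1.09 to 0.45), and P2ry6, at −0.29 (−0.64 to 0.05). Of the other pathway genes, none of 39 passed in any genotype comparison or in the interaction. Ada was the nearest in injured muscle, at a log2 difference of 1.58 and an edgeR adjusted p of 0.334, and DESeq2 called it (1.59). It averaged 20.8 ± 14.6 CPM in KO CTX and 6.94 ± 1.66 CPM in WT CTX libraries (SD, n = 4 each). KO CTX libraries 1 to 4 had 8.35, 8.04, 34.1 and 32.6 CPM, and WT CTX libraries 4.785 to 8.44 CPM. The groups overlapped, and the difference rested on KO CTX libraries 3 and 4.

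**Figure D5:**
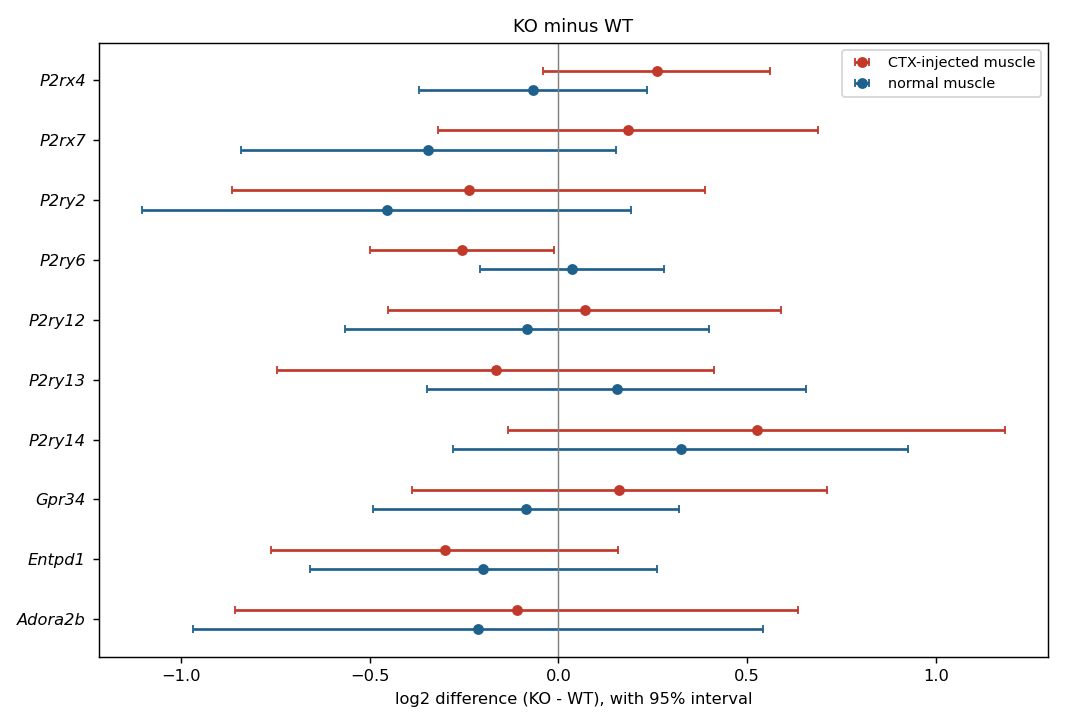
Log2 difference of KO and WT for the 10 genes in CTX-injected and in normal muscle, with bars for the 95% interval. Apart from P2ry6 in CTX-injected muscle, whose interval runs from −0.50 to −0.01 before adjustment, every interval spans 0.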

How the data were processed

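Per the labels' protocols, a Qiagen micro kit and SMART-Seq V4, which keeps no strand, were used on RNA of sorted macrophages. The authors deposited raw counts, whole numbers of reads for each gene symbol. FastQC 0.11.7, cutadapt 1.18, HISAT2 2.1.0 and featureCounts of Subread 1.6.2 with the mm10 build are named in the submitters' processing notes, while the annotation, the strand setting and the handling of multi-mapping reads are not given in the sources used here. Amplified reads carry no molecular identifiers.

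Genes were kept with filterByExpr by group, scaled with TMM factors and tested with edgeR 4.0.16's quasi-likelihood test in R 4.3.3, all 16 libraries in 1 fit, with Benjamini-Hochberg adjustment over 13649 genes and a threshold of 0.05. The 95% intervals use the t distribution on the residual and prior degrees of freedom. Patterns were compared on log2 CPM with a prior count of 2. Per-kilobase levels use merged exons of GENCODE M21, where 23376 of 24421 symbols matched. Scripts were tested on simulated data. The members, the lists of pathway and marker genes and the naming rule were chosen with earlier results of these data known. The text names every member, every pathway gene that a count of 5 or fewer stands for, up to 3 pathway genes of highest mean CPM per list, and the genes of nearest pattern.

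Same-numbered normal libraries deviated together for numbers 2 and 3 (correlation 0.644 and 0.567). For number 5 the correlation was 0.244, and KO normal library 5 was closest to WT normal library 6. Same-numbered CTX libraries did not deviate together (−0.124 to 0.0046). Pairs within a group differed by more than sampling noise, with a chi-square per degree of freedom of at least 6.33, and none was counted as a duplicate. Alternatives were size factors (RLE), library totals, no filter, a replicate block, the DESeq2 1.42.0 Wald test, and leaving out each library or those with Xist. Leaving out both normal libraries numbered 3, and a block within normal muscle, were added after seeing the data.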

Additional observations from a re-analysis of the deposited data

Results flagged for a closer look

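In 40 groups of 4 libraries, 2 values stood apart by Dixon's criterion, which chance alone meets in about 1 of 20 groups. Entpd1 in KO normal library 3 was at 235.9 CPM, with the other KO normal libraries at 146 to 157.8 CPM, so that the gap to its nearest neighbour took 0.868 of the range. P2ry2 in WT CTX library 3 was at 171.3 CPM, with the other WT CTX libraries at 100.9 to 109.5 CPM and a gap of 0.878 of the range.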

How the results depend on the processing

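Of the 150 alternative values of the members in each injury comparison, 143 in KO and 138 in WT kept their direction and their side of the cutoff used for the counts, and the rest were of P2rx4, P2ry6 and Entpd1. These counts are a description. With library totals, P2rx4 (−0.23), P2ry6 (−0.45) and Entpd1 (−0.028) turned in WT, as did, among other pathway genes, Panx1 (−0.41), Slc29a3 (−0.17), Adk (−0.35) and Abhd12 (−0.54) in WT and Panx1 (−0.42), Slc29a3 (−0.079), Adk (−0.35), Casp1 (−0.58), Gsdmd (−0.61), Abhd12 (−0.57) and Abhd16a (−0.59) in KO. Of these other pathway genes, all but Slc29a3 then passed the test as lower. These turns come with the shift of the median of all genes under that scaling. It called 1920 genes higher and 8398 lower in KO, against 4549 and 5491 with TMM, and 1944 higher and 8349 lower in WT, against 4551 and 5378. Members called higher in WT were then 2, and other pathway genes called lower were 27 in KO and 26 in WT. Leaving out single libraries gave 2 to 4 members higher in WT.

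For KO against WT in CTX-injected muscle, DESeq2 called 17 genes higher and 26 lower, with 1 other pathway gene higher. For the interaction it called 9 higher and 33 lower, with 1 other pathway gene higher, Casp1 (0.50). No member was called in either genotype comparison or in the interaction under any alternative. The count of genes lower in KO CTX against WT CTX was 1 with the replicate block and 1 without the libraries that held Xist, and 0 to 1 without single libraries. The interaction gave 1 gene lower without the libraries that held Xist, and 0 to 1 higher and 0 to 2 lower without single libraries. The replicate block, whose numbers went together only for normal libraries 2 and 3, moved Entpd1 in WT below that cutoff (0.49). It moved no other member across the cutoff, nor did the block within normal muscle. The causes were not tested. At 26 to 60 counts a CTX library for Gpr34, counting error limits small genotype differences.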
